A study of Mus musculus with 8 samples.

Results

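Bcl6 and 4 further genes of follicular helper T cells, Pou2af1, Icos, Sh2d1a and Cxcr5, were followed across the libraries of the series. They were chosen by symbol, and all 5 members were found among the 11841 gene symbols of the deposited table. RNA was taken from CD44+ CD4+ T cells, antigen-experienced helper cells, of the lymph nodes that drain the skin, after PMA and ionomycin for 2 h, a stimulus that bypasses the T cell receptor. The mice were BALB/cAJcl and were T-bet-/- (called T-bet-null), STAT6-/- (STAT6-null), T-bet-/- STAT6-/- (double-null) or wild type (WT), with 2 libraries per genotype and 8 in all. The sources used here give neither age, sex and number of the mice nor any pooling. The stimulus was given to the cells of all 4 genotypes, so every level is that of stimulated cells. Levels are FPKM, fragments scaled to transcript length and library size.

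Follicular helper cells enter B cell follicles and help B cells in germinal centres. Bcl6 is the transcriptional repressor that directs this fate, and Cxcr5 is the chemokine receptor that leads cells towards the follicle. Icos is the costimulatory receptor that keeps the programme going, Sh2d1a encodes SAP, the adaptor that lets T cells hold on to B cells through SLAM receptors, and Pou2af1 encodes a coactivator of octamer-binding factors that B cells and activated T cells share. STAT factors are known to act on Bcl6 transcription, and T-bet is known to bind BCL6 protein in Th1 cells.

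Bcl6 has several annotated start sites, and 2 of its promoters and that of Pou2af1 are shown because the genotypes lack a STAT factor and a T-box factor whose motifs can be looked for in them. The RefSeq table of promoters held 2 of the 5 members. Each window holds the 250 bases before and the 50 after a RefSeq start site (GRCm38.p6, the assembly of mm10) and is written 5′ to 3′ on the gene's own strand. Capitals mark matches to any of the motifs searched for on both strands. Those were TTCNNNGAA (STAT factors), the STAT6 motif (the same letters with 4 bases between them), TTCCTNGAA (BCL6, each match of which is also one to TTCNNNGAA), AGGTGTGA (T-box), ATTTGCAT (octamer) and TGACGT (core of the cyclic AMP response element).
Bcl6, upstream start, chr16:23988803-23989102, minus strand: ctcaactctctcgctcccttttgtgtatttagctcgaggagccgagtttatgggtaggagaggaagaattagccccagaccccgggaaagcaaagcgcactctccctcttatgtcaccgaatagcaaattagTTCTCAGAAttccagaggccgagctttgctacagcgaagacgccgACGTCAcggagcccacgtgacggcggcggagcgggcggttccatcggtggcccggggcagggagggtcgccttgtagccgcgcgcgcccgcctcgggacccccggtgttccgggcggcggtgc
Bcl6, downstream start inside the gene, chr16:23981234-23981533, minus strand: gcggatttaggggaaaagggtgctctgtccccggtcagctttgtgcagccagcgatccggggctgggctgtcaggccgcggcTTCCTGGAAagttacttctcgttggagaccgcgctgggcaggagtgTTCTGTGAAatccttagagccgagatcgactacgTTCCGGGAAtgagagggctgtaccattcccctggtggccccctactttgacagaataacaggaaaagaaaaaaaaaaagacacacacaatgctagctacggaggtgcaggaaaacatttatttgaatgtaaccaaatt
Pou2af1, chr9:51213440-51213739, plus strand: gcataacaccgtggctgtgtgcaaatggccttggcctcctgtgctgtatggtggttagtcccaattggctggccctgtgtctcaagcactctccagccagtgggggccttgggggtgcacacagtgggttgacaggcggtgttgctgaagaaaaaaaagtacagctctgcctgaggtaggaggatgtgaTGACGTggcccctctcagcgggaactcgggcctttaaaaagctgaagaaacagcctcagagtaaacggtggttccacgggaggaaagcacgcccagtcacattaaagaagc

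The upstream Bcl6 window held 1 match to TTCNNNGAA, TTCTCAGAA, whose first base lies at -118 from the start site, and 1 to TGACGT on the other strand. It overlaps the annotated first exon, while the downstream window lies within the gene and overlaps no exon of the GENCODE basic set. The downstream window held 3 matches to TTCNNNGAA, TTCCTGGAA at -168, TTCTGTGAA at -122 and TTCCGGGAA at -88, of which TTCCTGGAA also matched the BCL6 motif. Of 32851 windows of the same length in the RefSeq table, 8.3% held TTCNNNGAA and 1.59% held TTCCTNGAA. Pou2af1 held TGACGT at -61, as did 7.51% of the windows somewhere in theirs. No window of the 3 held the STAT6 motif (6.95% of all), AGGTGTGA (1.28%) or ATTTGCAT (1.74%). These matches describe letters, and no binding was measured.

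The 8 libraries were near each other in depth, with a relative depth of 0.877 to 1.067 read from the steps of low values, and an approximate 19900000 fragments in the first WT library. Tbx21, which encodes T-bet, stood at 1.44 and 1.54 FPKM for T-bet-null, 102 and 92.1 for STAT6-null, 2.49 and 2.095 for double-null and 30.8 and 31.6 for WT libraries. Stat6 stood at 88.8 and 89.8 FPKM for T-bet-null, 31.6 and 29.0 for STAT6-null, 29.6 and 26.9 for double-null and 89.9 and 90.9 for WT libraries, so each targeted transcript was lowest where the label says it is lost. The WT libraries stood apart, with Pearson r of log2(FPKM + 1) at 0.9341 to 0.9536 to mutant libraries, against 0.9829 to 0.9888 between mutant genotypes and 0.9965 to 0.9977 within a genotype. Of the 10281 genes tested, 70.6% were called at an adjusted p under 0.05 for T-bet-null against WT, 71% for STAT6-null and 73% for double-null cells, with limma and Benjamini-Hochberg adjustment. A call against WT is therefore the usual outcome for a gene in this table. The helper T cell markers Cd3d, Cd3e, Cd3g, Cd4, Cd44, Cd5, Cd28 and Lck were all present, with summed levels of 1701 to 1958 FPKM in mutant and 2263 and 2299 FPKM for WT libraries. Of these 8 markers Cd44 was called higher in all 3 mutants, while 7 were lower without T-bet, 5 without STAT6 and 6 without both. The haemoglobin genes Hba-a1 and Beta-s, 2 of 7 erythroid markers with a line in the table, summed to 2.63 to 7.48 FPKM in mutant and 442 and 224 FPKM in WT libraries. Myeloid and dendritic markers, 6 of 10 in the table, summed to 102 to 145 FPKM in mutant and 190 and 185 FPKM in WT libraries. Most of that gap lay in Ctss, at 43.1 to 59.3 FPKM in mutant and 105 and 110 FPKM in WT libraries. Tyrobp was also higher in WT libraries, while Cd68 was lower there (2.96 and 3.46 FPKM, against 3.75 to 6.21). For Lyz2, Cst3 and Fcer1g the WT and mutant libraries overlapped. The part of erythroid, myeloid and dendritic cells in the differences from WT was not tested.

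Bcl6, the repressor (mm10 chr16:23965050-23988866), was measured at 14.7 and 14.1 FPKM for T-bet-null, 12.3 and 12.3 for STAT6-null, 13.4 and 14.7 for double-null and 32.7 and 34.1 for WT libraries. All 6 mutant libraries lay below both WT libraries, as did those of 33.7% of all genes tested. Libraries of a mutant and WT did not overlap for 86.6% of all genes with T-bet-null, 85.7% with STAT6-null and 84.6% with double-null cells. The means were 14.4 ± 0.487 FPKM for T-bet-null, 12.3 ± 0.0238 for STAT6-null, 14.0 ± 0.908 for double-null and 33.4 ± 1.00 for WT cells (SD, n = 2 each). Bcl6 thus stood at 0.432, 0.369 and 0.421 of the WT mean in the 3 mutants, in the same order. It fell by 1.16 ± 0.062 in T-bet-null cells (log2 of FPKM + 1 ± SE, adjusted p = 9.7e-07 in limma). It fell by 1.37 in STAT6-null cells (adjusted p = 3.37e-07) and by 1.19 in double-null cells (adjusted p = 4.41e-07, the same limma fit). Among all genes tested, 2.22% fell by as much or more for T-bet-null, 1.76% for STAT6-null and 3.91% for double-null cells. In bulk RNA, fewer cells that express a gene and less RNA per cell cannot be told apart.

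Between the mutants Bcl6 differed little. Double-null and T-bet-null cells gave a difference of -0.04 ± 0.062 on the log2 scale (limma, adjusted p = 0.697), and double-null and STAT6-null cells 0.18 ± 0.062 (adjusted p = 0.0835, and 0.0456 without double-null replicate 1). STAT6-null cells were lower than T-bet-null cells by a call of small size, -0.21 ± 0.062 (limma, adjusted p = 0.036), in a comparison where 14.9% of all genes were called lower. That call was lost when either library of either genotype was left out, with adjusted p of 0.189 and 0.0934 without T-bet-null replicates 1 and 2 and 0.129 and 0.125 without STAT6-null replicates 1 and 2. In descending order the levels of Bcl6 were WT, T-bet-null, double-null and STAT6-null, and of the neighbours in this order only WT and T-bet-null differed by the test.

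The joint effect on Bcl6 was not the sum of the separate ones. STAT6 loss changed Bcl6 by -0.04 where T-bet was absent, against -1.37 where it was present, an interaction of 1.33 ± 0.088 on the log2 scale (limma, adjusted p = 1.31e-05). An interaction was called for 57.3% of all genes tested, 29.6% upwards and 27.7% downwards. The interaction and all 3 comparisons with WT share the WT libraries, and the loss of a gene and any other difference between WT and mutant mice cannot be told apart.

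**Figure D1:**
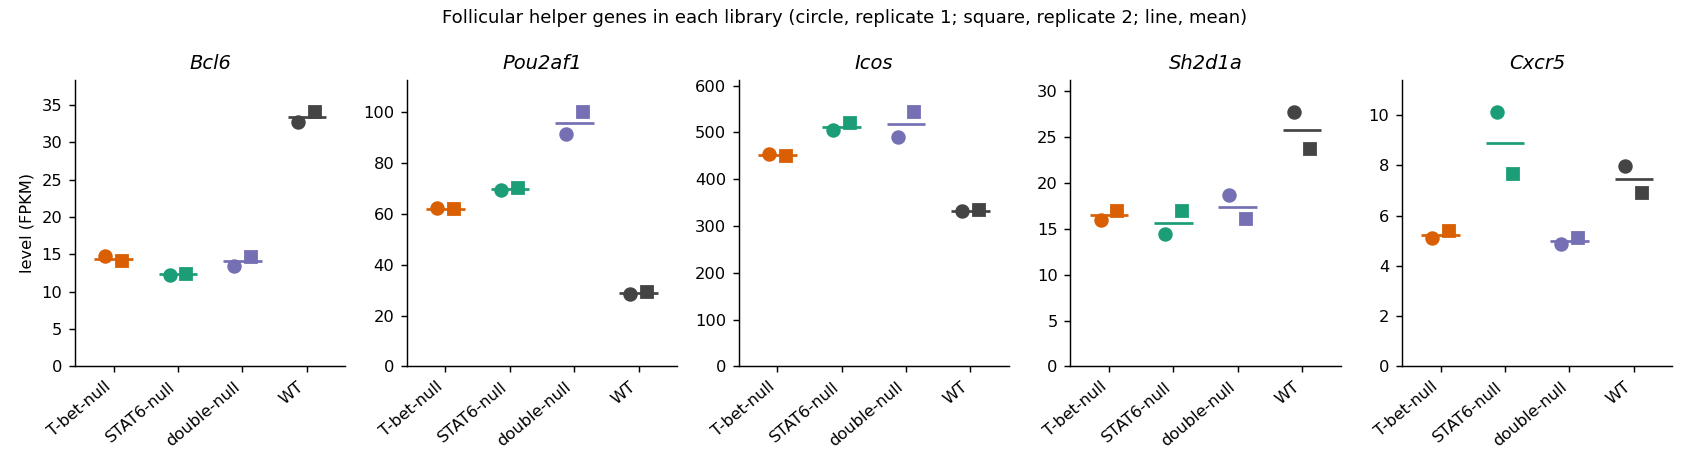
Level in FPKM (y axis, from 0) of Bcl6, Pou2af1, Icos, Sh2d1a and Cxcr5 for T-bet-null, STAT6-null, double-null and WT libraries (x axis); circles are replicate 1, squares replicate 2 and lines the mean of n = 2. Bcl6 and Sh2d1a are lower and Pou2af1 and Icos higher in all 6 mutant libraries than in both WT libraries, while Cxcr5 is lower only in the 4 libraries of the 2 genotypes that lack T-bet.

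Sh2d1a, which encodes the adaptor SAP (chrX:42502565-42522097), went in the direction of Bcl6 by a smaller amount. Its level was 16.0 and 16.9 FPKM for T-bet-null, 14.4 and 16.9 for STAT6-null, 18.7 and 16.0 for double-null and 27.7 and 23.6 for WT libraries. The highest mutant library lay below the lower WT library, as for 33.7% of all genes tested. Sh2d1a fell by 0.61 ± 0.104 in T-bet-null cells (limma, adjusted p = 0.000708), by 0.68 in STAT6-null cells (adjusted p = 0.000343) and by 0.54 in double-null cells (adjusted p = 0.00128). Changes of that size or more downwards were found in 14.4%, 13.7% and 19.8% of all genes tested in the same order. The means, 16.4 ± 0.622 FPKM for T-bet-null, 15.7 ± 1.77 for STAT6-null, 17.3 ± 1.88 for double-null and 25.7 ± 2.90 for WT cells (SD, n = 2 each), did not differ between mutants by the test. The log2 differences were 0.07 ± 0.104 for double-null over T-bet-null (limma, adjusted p = 0.641), 0.14 for double-null over STAT6-null (adjusted p = 0.384) and -0.07 for STAT6-null over T-bet-null cells (adjusted p = 0.649).

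Sh2d1a lies on the X chromosome, and the labels give no sex. Xist, the RNA of X inactivation, had no line in the table, so its level could not be read. The 4 Y-linked genes measured, Ddx3y, Kdm5d, Eif2s3y and Uty, summed to 34.1 and 33.7 FPKM for T-bet-null, 43.2 and 37.3 for STAT6-null, 29.5 and 67.9 for double-null and 104 and 110 for WT libraries. The Y-linked sum was lower in each mutant library than in both WT libraries. Their part in the Sh2d1a difference was not tested.

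Pou2af1, the octamer coactivator (chr9:51213690-51240079), went against Bcl6 and rose in every mutant. It was measured at 62.2 and 61.7 FPKM for T-bet-null, 69.3 and 70.2 for STAT6-null, 91.2 and 100.1 for double-null and 28.5 and 29.1 for WT libraries. The libraries of no 2 genotypes overlapped, as for 24.3% of all genes tested. Pou2af1 rose by 1.08 ± 0.057 in T-bet-null cells (limma, adjusted p = 8.04e-07), by 1.25 in STAT6-null cells (adjusted p = 3.26e-07) and by 1.70 in double-null cells (adjusted p = 6.02e-08). It stood at 2.15, 2.42 and 3.32 times the WT mean in that order. Rises of that size or more were found in 3.33%, 2.53% and 1.16% of all genes tested.

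Of the 5 genes, Pou2af1 alone was called different in the double mutant from both single mutants. It was higher for double-null than for T-bet-null cells by 0.62 ± 0.057 (limma, adjusted p = 0.000142) and than for STAT6-null cells by 0.45 ± 0.057 (adjusted p = 0.00112), comparisons in which 32.6% and 19.9% of all genes were called and 16.4% and 11.3% were called higher. STAT6-null and T-bet-null cells gave 0.17 ± 0.057 (limma, adjusted p = 0.0562, and 0.0326 with median-of-ratios scaling of the libraries). The effects of both losses added up to less than their sum, with an interaction of -0.63 ± 0.080 (limma, adjusted p = 0.000253).

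Icos, the costimulatory receptor (chr1:60960773-61000322), was the most abundant member and rose by a smaller amount. It was measured at 454 and 451 FPKM for T-bet-null, 504 and 521 for STAT6-null, 491 and 544 for double-null and 333 and 334 for WT libraries. Every mutant library lay above both WT libraries, as did those of 33.2% of all genes tested. Icos rose by 0.44 ± 0.062 in T-bet-null cells (limma, adjusted p = 0.000223), by 0.62 in STAT6-null cells (adjusted p = 2.48e-05) and by 0.63 in double-null cells (adjusted p = 1.83e-05), and 19.8%, 13% and 15.1% of all genes rose by as much or more. Double-null and STAT6-null cells gave 0.01 ± 0.062 (limma, adjusted p = 0.913), and STAT6-null over T-bet-null cells 0.18 (adjusted p = 0.0615, and 0.0295 with median-of-ratios scaling). The call for double-null over T-bet-null cells, 0.19 ± 0.062 (limma, adjusted p = 0.044), was lost with quantile normalization (0.065, adjusted p = 0.368) and with the replicate number as a block (adjusted p = 0.0525). It was also lost without double-null replicate 2 (0.12, adjusted p = 0.202), either T-bet-null library (0.20 and 0.19, adjusted p = 0.152 and 0.187) or either STAT6-null library (adjusted p = 0.0716). The interaction was -0.43 ± 0.088 (limma, adjusted p = 0.00309).

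Cxcr5, the follicle-homing receptor (chr9:44511787-44526444), split the single mutants. It was measured at 5.10 and 5.38 FPKM for T-bet-null, 10.1 and 7.65 for STAT6-null, 4.85 and 5.12 for double-null and 7.96 and 6.91 for WT libraries. The 4 libraries without T-bet lay below the other 4, as for 6.96% of all genes tested, and the STAT6-null and WT libraries overlapped. Cxcr5 fell by 0.43 ± 0.116 in T-bet-null cells (limma, adjusted p = 0.00861) and by 0.49 in double-null cells (adjusted p = 0.004), while STAT6-null cells gave 0.22 ± 0.116 above WT, which did not pass (adjusted p = 0.115). Falls of that size or more were found in 22.6% of all genes for T-bet-null and 21.8% for double-null cells. Without WT replicate 1 the T-bet-null value no longer passed (-0.34, adjusted p = 0.0665). The STAT6-null difference from WT was 0.04 without STAT6-null replicate 1 (adjusted p = 0.751) and 0.40 without STAT6-null replicate 2 (adjusted p = 0.00928), so the value rests on which STAT6-null library is read.

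Set directly against each other, STAT6-null cells had more Cxcr5 than T-bet-null cells by 0.65 ± 0.116 (limma, adjusted p = 0.00358), and double-null cells less than STAT6-null cells by -0.71 ± 0.116 (adjusted p = 0.0038). For STAT6-null over T-bet-null 27.2% of all genes were called and 12.3% were called higher, and 8.63% were called lower for double-null over STAT6-null. Without STAT6-null replicate 1 the values were 0.47 (adjusted p = 0.0199) and -0.53 (adjusted p = 0.0214). Double-null and T-bet-null cells gave -0.06 ± 0.116 (limma, adjusted p = 0.722). The interaction, -0.28 ± 0.164, did not pass (adjusted p = 0.17), and was -0.46 without STAT6-null replicate 2 (adjusted p = 0.0207) and -0.10 without STAT6-null replicate 1 (adjusted p = 0.543). The order of Cxcr5 levels was STAT6-null, WT, T-bet-null and double-null, and of the neighbours only WT and T-bet-null differed by the test.

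B cells also express Cxcr5, Pou2af1 and Bcl6, so B cell markers were read in the same libraries. Of 15 such markers, 10 were in the table, and Ighm, Pax5, Cr2, Ebf1 and Vpreb3 had no line. The 7 markers outside the class II genes H2-Aa, H2-Ab1 and their partner Cd74 (Ms4a1, Cd79a, Cd79b, Cd22, Blnk, Fcer2a and Spib) summed to 3.08 and 2.84 FPKM for T-bet-null, 8.46 and 3.68 for STAT6-null, 3.14 and 2.29 for double-null and 7.45 and 4.57 for WT libraries. STAT6-null replicate 1 was the highest library in this sum and also in Cxcr5, and both WT libraries exceeded all 4 libraries without T-bet in both. All 10 markers summed to 61.5 and 58.3 FPKM for T-bet-null, 172 and 75.1 for STAT6-null, 73.3 and 78.2 for double-null and 111 and 69.8 for WT libraries. In this wider sum WT replicate 2 lay below both double-null libraries, unlike in Cxcr5. Within the 7 markers Blnk also went the other way, at 0.462 and 0.374 FPKM for double-null and 0.297 and 0.22 for WT libraries. The defining genes were low, with Ms4a1 at 0.164 to 0.939 FPKM and Cd79a at 0.445 to 2.98 FPKM over all 8 libraries. Of the 6 markers tested, 0 were called higher in any of the 3 mutants, while 2 were lower for T-bet-null, 0 for STAT6-null and 1 for double-null cells. Lower calls were made for 36.3%, 36.1% and 36.7% of all genes in that order, and higher calls for 34.2%, 34.9% and 36.3%. The part of B cell RNA in the Cxcr5 differences was not tested. Pou2af1 was lowest in the WT and highest in the double-null libraries, and the part of B cell RNA in its differences was not tested either.

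**Figure D2:**
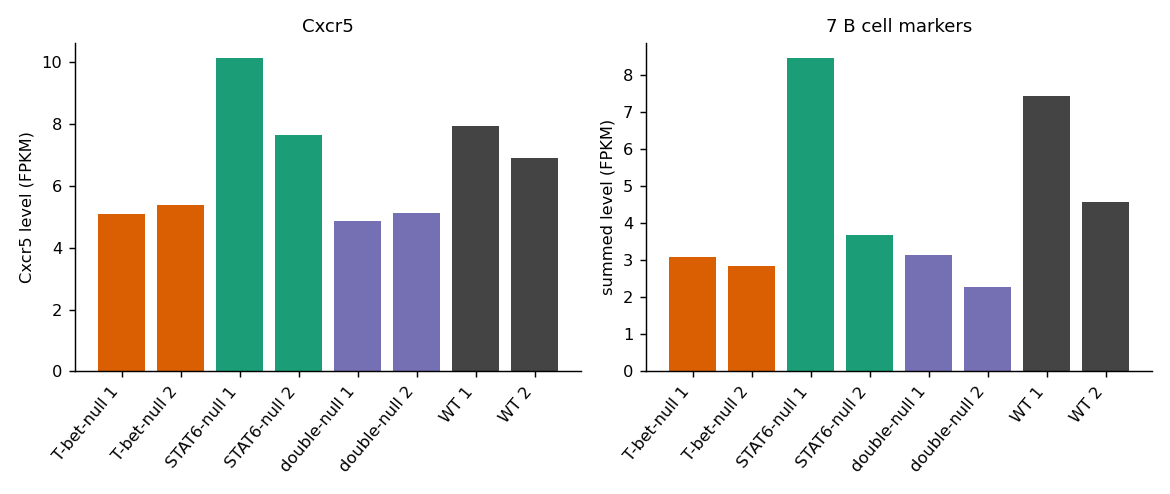
Bars from 0 give Cxcr5 in FPKM (left) and the summed FPKM of 7 B cell markers (right) in each library, in the order T-bet-null, STAT6-null, double-null and WT. STAT6-null replicate 1 is highest in both panels (10.1 and 8.46 FPKM), and the 4 libraries without T-bet lie below the WT libraries in both. In the sum of all 10 markers, not drawn, WT replicate 2 lies below both double-null libraries.

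Which genes parted from Bcl6 was then tested directly, as each gene's change minus that of Bcl6 in the same libraries. All 4 did in each mutant against WT, a result also reached by 95.6% of all genes for T-bet-null, 97.1% for STAT6-null and 94.9% for double-null cells, since few genes fell as far as Bcl6. All 4 calls were upwards, as were those of 94.7%, 96.3% and 92.9% of all genes in that order. The sizes therefore say more than the calls. Against a median over all genes of 1.14 for T-bet-null, 1.36 for STAT6-null and 1.19 for double-null cells, Sh2d1a parted from Bcl6 by 0.55 ± 0.123, 0.69 and 0.65 in that order (limma, adjusted p = 0.000798, 0.000112 and 0.000191). Cxcr5 parted by 0.73 ± 0.121 for T-bet-null, 1.59 for STAT6-null and 0.70 for double-null cells, so it was closer to Bcl6 than the median gene where T-bet was absent. The STAT6-null value was 1.41 without STAT6-null replicate 1, against the median of 1.36 with all libraries. Icos parted by 1.60, 1.99 and 1.83 and Pou2af1 by 2.24, 2.62 and 2.89, with adjusted p between 2.16e-12 and 2.34e-10 in limma.

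As a ratio of FPKM within a library, Sh2d1a was 1.08 and 1.20 times Bcl6 for T-bet-null, 1.17 and 1.37 for STAT6-null, 1.39 and 1.09 for double-null and 0.849 and 0.693 for WT libraries. Cxcr5 was 0.346 and 0.383 times Bcl6 for T-bet-null, 0.824 and 0.621 for STAT6-null, 0.362 and 0.349 for double-null and 0.244 and 0.203 for WT libraries. Pou2af1 was 4.22 and 4.39 times Bcl6 for T-bet-null, 5.64 and 5.69 for STAT6-null, 6.80 and 6.82 for double-null and 0.871 and 0.853 for WT libraries. In WT cells Bcl6 thus exceeded Pou2af1 per transcript length, and in each mutant the order was the other way round. Icos was 30.8 and 32.1 times Bcl6 for T-bet-null, 41.0 and 42.2 for STAT6-null, 36.6 and 37.1 for double-null and 10.2 and 9.79 for WT libraries.

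**Figure D3:**
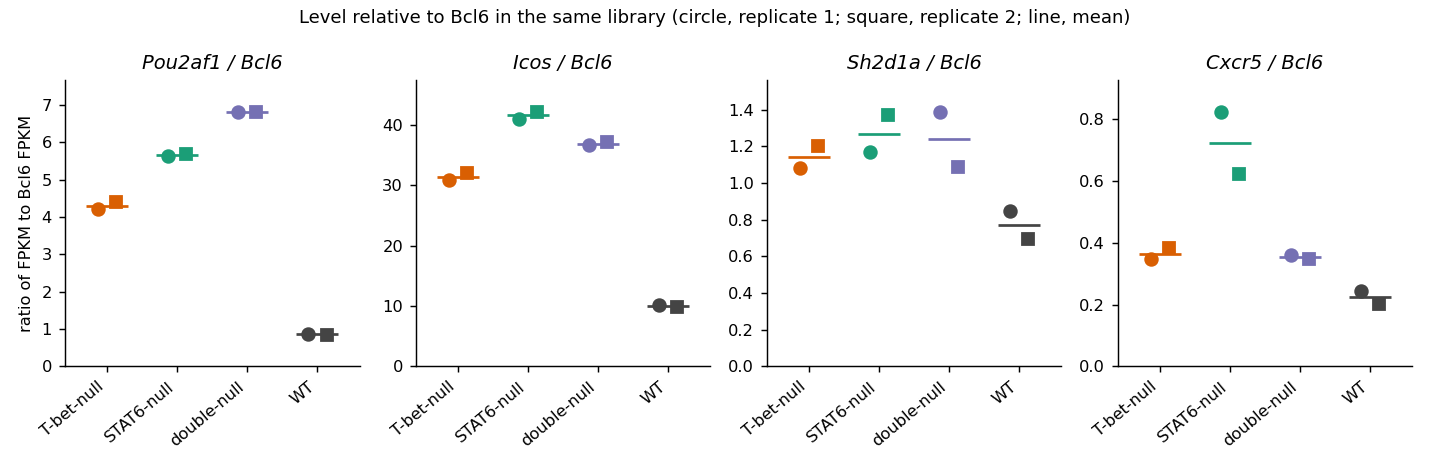
Ratio of the FPKM of Pou2af1, Icos, Sh2d1a and Cxcr5 to that of Bcl6 in the same library (y axis, from 0) by genotype (x axis); circles are replicate 1, squares replicate 2 and lines the mean of n = 2. All 4 ratios are lowest for WT libraries, and Pou2af1 reaches 6.80 and 6.82 for double-null libraries.

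Between the mutants the parting was smaller. From T-bet-null to double-null cells Sh2d1a (0.11 ± 0.123, limma, adjusted p = 0.553) and Cxcr5 (-0.03 ± 0.121, adjusted p = 0.899) were not called to part from Bcl6, while Pou2af1 parted by 0.65 (adjusted p = 2.1e-05), as 28.4% of all genes did, 17.9% upwards. Icos parted by 0.23 (limma, adjusted p = 0.0321), a call lost with quantile normalization (0.13, adjusted p = 0.15) and without any 1 of the 6 mutant libraries (adjusted p between 0.05 and 0.213). For double-null over STAT6-null cells Cxcr5 parted by -0.89 (limma, adjusted p = 0.000261) and Pou2af1 by 0.27 (adjusted p = 0.00961), with 30.5% of all genes called, 3.36% upwards and 27.1% downwards. The Pou2af1 call was lost without STAT6-null replicate 1 (limma, adjusted p = 0.0848) or without its partner (adjusted p = 0.0583). Icos (-0.16, adjusted p = 0.0979) and Sh2d1a (-0.04, adjusted p = 0.841) were not called there.

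For STAT6-null over T-bet-null cells Cxcr5 parted from Bcl6 by 0.86 (limma, adjusted p = 0.000161), Icos by 0.39 (adjusted p = 0.00111) and Pou2af1 by 0.38 (adjusted p = 0.00082), with 42.5% of all genes called and 38.5% upwards, and Sh2d1a gave 0.14 (adjusted p = 0.373). Of the 4 genes Sh2d1a alone was not called to part from Bcl6 in any comparison between mutants. In each of these comparisons most genes of the table were not called either. The SE of Sh2d1a was 0.123, against 0.066 for Pou2af1 and 0.071 for Icos, so a small parting of Sh2d1a could have been missed. In the interaction the parting was -1.97 for Pou2af1, -1.76 for Icos, -0.58 for Sh2d1a and -1.62 for Cxcr5 (limma, adjusted p = 2.03e-09, 5.89e-09, 0.00588 and 9.76e-07), with 95.5% of all genes called and 95.1% downwards.

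**Figure D4:**
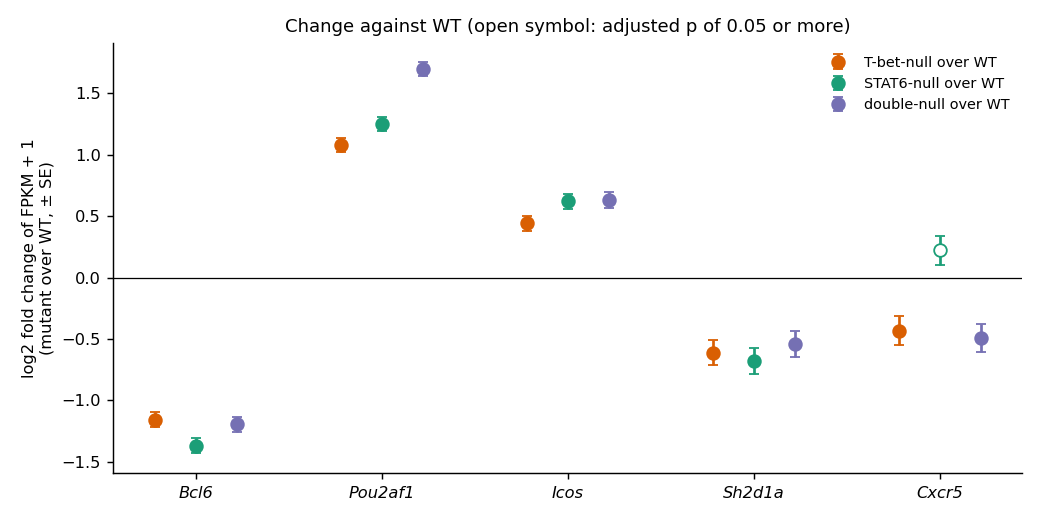
Log2 fold change of FPKM + 1, mutant over WT (y axis, points ± SE from the limma fit of all 8 libraries), of the 5 genes (x axis) in cells of each mutant, the T-bet-null value left and the double-null value right; open symbols did not pass an adjusted p of 0.05. Bcl6 and Sh2d1a are negative and Pou2af1 and Icos positive in all 3 mutants, and the STAT6-null value of Cxcr5 (0.22) is the one that did not pass.

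The genes of the table with the profile nearest to each member were found by the root mean square difference of log2(FPKM + 1) over the 8 libraries, each profile centred on its own mean. For Bcl6 these were Zcchc18 (0.0338), Ext2 (0.0423), Chchd3 (0.0558), Thra (0.0604) and Cdk19 (0.0669). Chchd3, a mitochondrial cristae protein, was close to Bcl6 in level too, at means of 14.4 FPKM for T-bet-null, 12.2 for STAT6-null, 13.7 for double-null and 32.2 for WT cells. Zcchc18 and Thra, a thyroid hormone receptor, were below 1 FPKM in every mutant mean, where the added 1 shrinks a fall. Zcchc18 averaged 0.867 FPKM for T-bet-null, 0.547 for STAT6-null, 0.797 for double-null and 3.04 for WT cells. Thra averaged 0.76, 0.471, 0.821 and 2.74 FPKM in that order. In FPKM both thus fell more steeply than Bcl6, and their nearness holds on the log2(FPKM + 1) scale alone. Cdk19 and Ext2 also fell more steeply than Bcl6 in FPKM, though by less than Zcchc18 and Thra. Cdk19 averaged 2.33, 2.17, 2.3 and 7.18 FPKM and Ext2 4.77, 3.7, 4.39 and 11.6 FPKM in the same order. Of the other members, Sh2d1a was nearest to Bcl6 at 0.305, then Cxcr5 at 0.575, Icos at 0.794 and Pou2af1 at 1.14.

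Nearest to Pou2af1 were Aimp2, a scaffold of the tRNA synthetase complex (0.0835), Tomm40, the pore of mitochondrial protein import (0.0925), and Ppfibp1 (0.102). Nearest to Icos were Ppp1r8 (0.0258), the eIF2 kinase gene Eif2ak1 (0.0259) and Clptm1 (0.0289). Nearest to Sh2d1a were Aldh16a1 (0.0629), D430019H16Rik (0.0684) and Fbxw4 (0.077), and to Cxcr5 Il10ra, the IL-10 receptor gene (0.0945), BC094916 (0.0952) and Abr (0.1). Il10ra averaged 14.1 FPKM for T-bet-null, 20.7 for STAT6-null, 13.3 for double-null and 17.6 for WT cells, which is the order of Cxcr5. No member was among the nearest genes of another.

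Wider lists around these genes moved in both directions. Of 15 surface and cytokine genes of follicular helper cells, 7 were higher and 5 lower for T-bet-null cells (median log2 change 0.10), 7 and 6 for STAT6-null (0.11) and 7 and 6 for double-null cells (0.03), beside medians over all genes of -0.016, -0.009 and -0.005 in the same order. Higher calls were made for 34.2%, 34.9% and 36.3% of all genes and lower calls for 36.3%, 36.1% and 36.7%. The same shares belong beside the counts of every list below. The top of the list was Il4, a cytokine of follicular helper as well as Th2 cells, at 2064 ± 21.3 FPKM for T-bet-null, 1257 ± 26.2 for STAT6-null, 729 ± 25.3 for double-null and 149.9 ± 46.7 for WT cells (SD, n = 2 each). The lowest was Il21r, the IL-21 receptor, for T-bet-null cells (-0.96) and Cxcr4, a receptor for the dark zone of germinal centres, for STAT6-null (-2.10) and double-null cells (-1.79). Cxcr4 averaged 78.0 ± 3.93 FPKM for T-bet-null, 23.0 ± 0.271 for STAT6-null, 28.9 ± 2.25 for double-null and 102 ± 3.69 for WT cells.

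Of 13 measured factors that favour the follicular helper fate, 5 were higher and 4 lower for T-bet-null (median 0.08), 7 and 5 for STAT6-null (0.56) and 7 and 6 for double-null cells (0.44). Tcf7, which encodes TCF1, an activator of Bcl6, was the lowest in each, at -1.06, -1.42 and -1.30 in that order. Its means were 32.7 ± 0.669 FPKM for T-bet-null, 25.3 ± 4.40 for STAT6-null, 27.4 ± 0.926 for double-null and 69.1 ± 1.16 for WT cells. Pou2f2, which encodes an octamer-binding partner of the Pou2af1 product, was the highest for T-bet-null cells (1.62) and stood at 71.6 ± 2.15 FPKM for T-bet-null, 70.7 ± 2.95 for STAT6-null, 68.9 ± 2.52 for double-null and 22.9 ± 4.33 for WT cells. Batf, an AP-1 family factor that follicular helper cells need, was the highest for STAT6-null (1.64) and double-null cells (1.59).

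Of 18 genes that oppose the fate or hold cells outside the follicle, 8 were higher and 5 lower for T-bet-null (median 0.105), 10 and 5 for STAT6-null (0.24) and 10 and 6 for double-null cells (0.295). Ccr7, the receptor for the T cell zone, was the lowest in each (-1.44, -1.80 and -2.75 in the same order). Stat5a, which carries IL-2 signals against Bcl6, was the highest for T-bet-null (1.05) and double-null cells (1.12). Prdm1, whose product Blimp-1 and BCL6 repress each other, was the highest for STAT6-null cells (1.42) and averaged 21.0 ± 0.00813 FPKM for T-bet-null, 50.9 ± 0.192 for STAT6-null, 32.95 ± 1.25 for double-null and 18.4 ± 1.52 for WT cells. Its T-bet-null rise of 0.19 (limma, adjusted p = 0.0277) was lost with quantile normalization (adjusted p = 0.304), without WT replicate 1 (adjusted p = 0.173) and without either T-bet-null library (adjusted p = 0.0971 and 0.0985).

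Of 10 tested corepressors and partners of BCL6, 2 were higher and 5 lower for T-bet-null (median -0.31), 2 and 6 for STAT6-null (-0.45) and 1 and 7 for double-null cells (-0.40). Hdac4, a class IIa deacetylase, was the highest (0.46, 0.54 and 0.51 in the same order) and Zbtb7b, the helper lineage factor ThPOK, the lowest (-1.04, -0.81 and -0.92). Among SLAM receptors and SAP partners, 8 were tested, of which 3 were higher and 3 lower for T-bet-null (median -0.015), 3 and 4 for STAT6-null (-0.20) and 2 and 4 for double-null cells (-0.17). Fyn, the kinase that SAP recruits to SLAM receptors, was the highest in each (0.93, 1.39 and 1.36) and averaged 228 ± 2.62 FPKM for T-bet-null, 312 ± 1.01 for STAT6-null, 306 ± 5.32 for double-null and 119 ± 2.13 for WT cells. Fyn and Sh2d1a changed in opposite directions in each mutant. Since Fyn was picked as the highest of its list, this adds no finding about the pair. Slamf7, a SLAM receptor, was the lowest (-1.24, -1.50 and -1.23).

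Of 9 tested genes of ICOS, CD28 and PI3K signalling, 1 was higher and 7 lower for T-bet-null (median -0.45), 2 and 4 for STAT6-null (-0.05) and 2 and 5 for double-null cells (-0.39). Tbk1, a kinase that associates with ICOS, was the highest (0.72, 0.46 and 0.43 in the same order), while Pik3r1, a regulatory subunit of the PI3K that ICOS engages, was the lowest (-1.19, -1.46 and -1.56). Pik3r1 averaged 6.74 ± 0.207 FPKM for T-bet-null, 5.40 ± 0.240 for STAT6-null, 5.01 ± 0.135 for double-null and 16.7 ± 0.0117 for WT cells. Regulatory T cells can carry follicular genes too. Their 7 markers were 3 higher and 2 lower for T-bet-null, 3 and 3 for STAT6-null and 3 and 4 for double-null cells. Over all genes, 34.2%, 34.9% and 36.3% were called higher and 36.3%, 36.1% and 36.7% lower in that order. Foxp3, which defines regulatory T cells, stood at 95.6 and 91.8 FPKM for T-bet-null, 120 and 113 for STAT6-null, 97.4 and 113 for double-null and 85.2 and 90.6 for WT libraries. The part of regulatory cells in the member genes' differences was not tested.

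**Figure D5:**
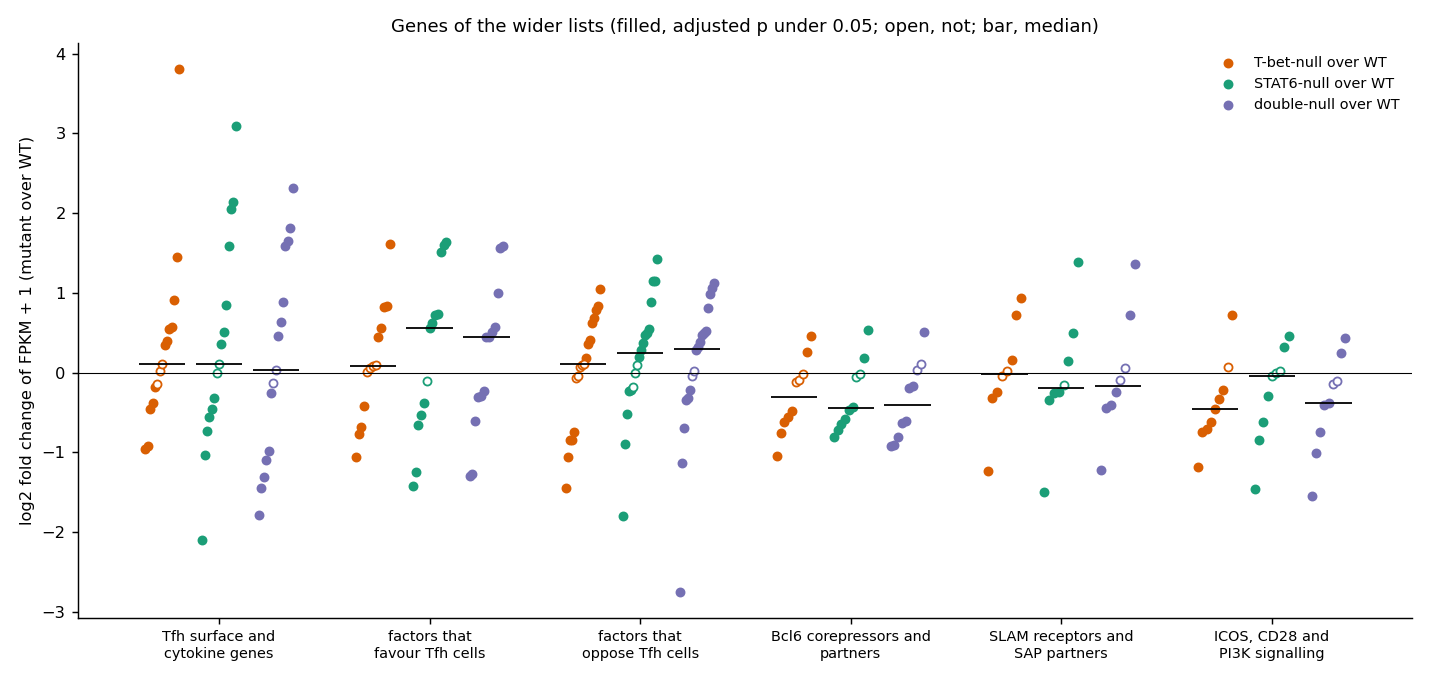
Log2 fold change of FPKM + 1, mutant over WT (y axis), of every tested gene of 6 lists around the follicular helper programme (x axis) in cells of each mutant, T-bet-null left and double-null right; filled points passed an adjusted p of 0.05 in limma, open points did not, and bars are list medians. Each list holds genes on both sides of 0, with Il4 at the top (3.81 for T-bet-null cells) and Ccr7 at the bottom (-2.75 for double-null cells).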

How the data were processed

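Levels are FPKM made by the authors, deposited as 1 table with 1 column per library. Cufflinks and build mm10 are given per the submitters' processing notes, and RefSeq annotation per the table's own name; the sources used here name no aligner, version or strand setting. All 11906 lines lay above 0.1 FPKM in all 8 libraries, so a gene at or under that in any library is missing. Where a symbol stood on several lines (43 symbols), only the line of highest mean was kept, which left 11841. Genes with at least 1 FPKM in at least 2 libraries, 10281, were tested as log2(FPKM + 1) with limma 3.58.1 (R 4.3.3), 1 mean per genotype, an intensity trend, 4 residual degrees of freedom and two-sided p-values, Benjamini-Hochberg adjusted over all genes within each of 7 comparisons. Such fold changes understate those of low genes. Parting from Bcl6 used log2(FPKM + 1) minus that of Bcl6. The fits were also run on simulated data in which few genes changed, unlike these data, so that run does not test them in the present setting.

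Members and lists were chosen with earlier results of these data known. From each of 6 lists, the called genes with the highest and lowest change in each mutant against WT are named, and for each member its 3 nearest genes (5 for Bcl6). Nothing states that both libraries of a genotype are separate animals, and the p-values then reflect library spread alone, which may be technical. At the estimated depth, the approximate fragments per library were 227 to 511 for Cxcr5, 240 to 487 for Sh2d1a, 836 to 2486 for Bcl6, 1443 to 5267 for Pou2af1 and 21437 to 36432 for Icos, by the longest GENCODE transcript with a RefSeq match. Depth was read from 503 genes under 0.5 FPKM, of which 92 lay within 0.02 of whole steps in every library, so no count test was run. Python 3.11.15 and pandas 2.3.3 were used.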

Additional observations from a re-analysis of the deposited data

Results flagged for a closer look

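The effect of STAT6 loss differed between cells without and with T-bet, by the limma interaction over all 8 libraries, for 4 of the 5 follicular helper genes and for 57.3% of all genes tested. The interaction, the STAT6 effect without T-bet minus that with T-bet on the log2 scale, was 1.33 for Bcl6, -0.63 for Pou2af1, -0.43 for Icos and 0.75 for Sh2d1a. For Sh2d1a the 2 effects were 0.07 and -0.68 (adjusted p = 0.00247). In all 4 genes the effect of STAT6 loss was nearer to 0 where T-bet was already absent. The same held for 84.9% of all genes with a called interaction and for 74.8% of all genes tested. It also held for all 15 list genes below, but those were picked for extreme changes against WT and so add no support.

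Among the genes of the wider lists the same interaction was -4.60 for Il4 and -1.65 for Pou2f2. It was 0.39 for Il21r, 0.70 for Cxcr4, 1.18 for Tcf7, -0.88 for Batf and -1.08 for Stat5a. It was 0.49 for Ccr7, -0.80 for Prdm1, -0.49 for Hdac4 and 0.93 for Zbtb7b. It was -0.96 for Fyn, 1.52 for Slamf7, -0.76 for Tbk1 and 1.10 for Pik3r1. Of the list genes whose effects had opposite signs, Il4 and Tbk1 were called in both, with effects of -1.50 and -0.29 for T-bet-null cells, against 3.09 and 0.46 in T-bet-sufficient cells. The Tbk1 effect without T-bet no longer passed when T-bet-null replicate 2 was left out (limma, adjusted p = 0.0534), and Pou2f2, Zbtb7b and Slamf7 had opposite signs with effects without T-bet of -0.06, 0.12 and 0.01 that were not called. Ccr7 no longer passed without WT replicate 1 (limma, adjusted p = 0.0823), T-bet-null replicate 2 (0.0785), STAT6-null replicate 2 (0.0734) or double-null replicate 1 (0.0542). All these interactions share the WT libraries, which stood apart from the mutants.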

How the results depend on the processing

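Against WT, the changes of Bcl6, Pou2af1, Icos and Sh2d1a kept their direction and their call in all 3 mutants under the 16 alternatives (pseudocounts of 0.1 and 0.5, no filter and one of 5 FPKM, median-of-ratios scaling, quantile normalization, no trend, the replicate number as a block, and leaving out each of the 8 libraries). Bcl6 ranged on the log2 scale from -1.21 to -1.13 without T-bet, -1.44 to -1.33 without STAT6 and -1.28 to -1.13 without both. No value that passed with all libraries, or under the alternative itself, changed sign. Fitting the mutant libraries alone, an alternative chosen after seeing the data, changed no call of a member between mutants. Where a library is left out, the lone library of its genotype is assumed to vary like the others, and the cause of each change below was not tested.

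With libraries left out in turn, Cxcr5 ranged from -0.52 to -0.34 for T-bet-null against WT, 0.04 to 0.40 for STAT6-null against WT and -0.46 to -0.10 in the interaction. For double-null over T-bet-null, Icos ranged from 0.12 to 0.27 and its parting from Bcl6 from 0.20 to 0.25. For double-null over STAT6-null, Bcl6 ranged from 0.11 to 0.24 and the parting of Pou2af1 from 0.27 to 0.28. For STAT6-null over T-bet-null, Bcl6 ranged from -0.24 to -0.18, Pou2af1 from 0.16 to 0.18 and Icos from 0.16 to 0.20. Genes called ranged from 1642 to 3317 for double-null over T-bet-null (3351 with all libraries), 846 to 2057 over STAT6-null (2044) and 1461 to 3089 for STAT6-null over T-bet-null (2799). Genes parting from Bcl6 ranged from 1488 to 3143 (2916), 1360 to 3447 (3134) and 2359 to 4643 (4369) in that order.

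Differences between mutants that did not pass changed sign for 16 pairs of a gene and a comparison. With quantile normalization these were the parting of Cxcr5 (0.042) and Slamf7 (-0.06) for double-null over T-bet-null and Icos (-0.001) for double-null over STAT6-null. With libraries left out, for double-null over T-bet-null, Bcl6 ranged from -0.097 to 0.026, Sh2d1a from -0.035 to 0.174, its parting from -0.061 to 0.271, the parting of Cxcr5 from -0.09 to 0.04, Zbtb7b from -0.027 to 0.273 and Slamf7 from -0.038 to 0.059. For double-null over STAT6-null, Icos ranged from -0.062 to 0.088, the parting of Sh2d1a from -0.202 to 0.131, Pou2f2 from -0.078 to 0.006, Tcf7 from -0.05 to 0.292, Batf from -0.167 to 0.059, Stat5a from -0.082 to 0.021, Hdac4 from -0.068 to 0.01 and Zbtb7b from -0.234 to 0.009. For STAT6-null over T-bet-null, Sh2d1a ranged from -0.178 to 0.038 and Pou2f2 from -0.061 to 0.023.

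For double-null over T-bet-null, Icos fell short with quantile normalization (0.065), with no trend (0.19, adjusted p = 0.0606) and with the replicate block (0.19), and its parting with quantile normalization (0.13). With median-of-ratios scaling, Pou2af1 (0.18) and Icos (0.19) passed for STAT6-null over T-bet-null. Deviations of same-numbered libraries had r of -0.0899 to 0.0907 between genotypes, so the numbers were not taken as pairs, and the block moved the genes called for T-bet-null against WT to 7151 from 7255. With Pearson r in place of distance, 2 of the 5 nearest genes of Bcl6 were shared, 0 of 3 for Pou2af1 and 1 of 3 for each of Icos, Sh2d1a and Cxcr5. For the list genes named, 43 values changed their call, 4 of them against WT, all for Prdm1 for T-bet-null cells.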
